A study of Mus musculus with 4 samples.

Results

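Krt6a, Krt6b, Krt16 and Krt17 encode the stress keratins of mouse skin, and they are described here in the epidermis of mice with a K14-Cre knockout of the calcium sensor genes Stim1 and Stim2. The members are the 4 rows of the deposited count table with these gene names, of 56493 genes listed and 17179 genes with a count in any library. They were chosen by name with the knockout-to-control values already known, so those values are given as a description without a test. The knockout group (cKO) holds 2 libraries from animals labelled as knockouts of floxed Stim1 and Stim2 by K14-Cre, a recombinase under the Krt14 promoter that acts in keratinocytes of the epidermis and of hair follicles. The control group holds 2 libraries from Stim1/2fl/fl animals, which carry the same floxed alleles. Both groups are dorsal skin, with the epidermis separated from the dermis before RNA extraction. The labels do not give the age of the animals, whether controls carried Cre, or how many animals entered a library. All comparisons therefore measure the spread between libraries, which may be technical in part.

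Keratins build intermediate filaments as pairs of 1 type II and 1 type I protein. K5 pairs with K14 in basal keratinocytes and K1 with K10 above them. The type II keratins K6a and K6b pair with the type I keratins K16 and K17. In resting skin these keratins are made mainly in the hair follicle, where K6 and K75 mark the companion layer and K17 the outer root sheath. After wounding, and in inflamed or hyperproliferative skin, K6, K16 and K17 appear in keratinocytes between the follicles.

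The libraries were shallow, with 118858 to 322426 counts. Normalised values are CPM, a gene's count relative to all counts in tested genes of that library, scaled by the trimmed mean of M-values (TMM), on which 1 count was worth 3.19 to 11.2 CPM. The 10 keratinocyte markers all had counts and summed to 8676 to 14302 CPM in cKO and 8901 to 13173 CPM in control. Counts of Stim1 were 23 and 6 (cKO) against 24 and 62 (control), and those of Stim2 were 0 and 1 against 3 and 18. In CPM, each cKO value of both genes lay below each control value. Stim1 did not pass the test at this depth (edgeR quasi-likelihood test, adjusted p = 0.671), and Stim2 fell under the count filter. Over all 4243 genes tested, edgeR placed 36 past the adjusted threshold of 0.05 (0.848%), of which 28 were higher in cKO and 8 (0.189%) lower.

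Krt6a and Krt6b are neighbouring copies on the minus strand of chromosome 15. Krt6a (ENSMUSG00000058354) lies at 101598345 to 101602742 and Krt6b (ENSMUSG00000023041) at 101584458 to 101588722, in the coordinates of the deposited table (GRCm39 per the submitters' processing notes). Their coding sequences were 97.6% identical over 1665 aligned columns in the GENCODE M21 transcripts. The ends of the coding sequences, up to and including the stop codon, are printed because they show how alike the copies are just before the untranslated part where a 3' library is read. Capitals mark bases that differ from the other copy or are absent from it.
Krt6a: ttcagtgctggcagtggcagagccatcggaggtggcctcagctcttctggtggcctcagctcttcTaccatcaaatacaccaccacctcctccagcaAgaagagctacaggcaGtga
Krt6b: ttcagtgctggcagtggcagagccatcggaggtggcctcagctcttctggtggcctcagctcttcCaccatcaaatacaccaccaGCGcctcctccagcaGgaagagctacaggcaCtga
In this stretch 114 of 120 aligned columns were identical, and Krt6b carries 1 codon more. The 3' untranslated regions, of 557 bases in Krt6a and 506 bases in Krt6b, were only 70.9% identical. None of the 451 windows of 50 bases in the last 500 bases of either transcript occurred in a transcript of another gene. Windows in the coding part were not counted.

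The type I members are neighbours on the minus strand of chromosome 11. Krt16 (ENSMUSG00000053797, 8 exons) lies at 100136917 to 100139728 and Krt17 (ENSMUSG00000035557, 8 exons) at 100147043 to 100151855 in the same coordinates. Their coding sequences were 70.4% identical and their 3' untranslated regions 42.2%. The most alike stretch of 120 coding bases runs from base 1127 to 1246 of Krt16 and from 1040 to 1159 of Krt17. It is printed to show how alike the 2 genes are at their closest, and the placement of reads from it was not measured. Capitals mark the 5 positions that differ.
Krt16: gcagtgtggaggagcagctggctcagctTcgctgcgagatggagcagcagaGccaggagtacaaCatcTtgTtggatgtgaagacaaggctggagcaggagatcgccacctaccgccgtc
Krt17: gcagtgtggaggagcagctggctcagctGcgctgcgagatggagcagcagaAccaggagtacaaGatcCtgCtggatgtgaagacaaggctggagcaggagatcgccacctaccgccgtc
Of the 50-base windows in the last 500 bases, 83.1% of those of Krt16 and 90.5% of those of Krt17 occurred in no other gene. The shared windows lay in Krt14, in the pseudogene entry Gm11597 or in the other of the 2 members. With windows of 100 bases the share was 98.0% for Krt16, and none of the 401 windows of Krt17 was shared. The read length and the treatment of reads with several alignments are not given in the sources used here.

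The 4 stress keratins did not move as a group. Krt6a and Krt6b had 1 to 9 counts in a control library and 53 to 143 in a cKO library. Krt16 overlapped between the groups, and Krt17 was lower in both cKO libraries than in both control libraries. Of the 4 members, 2 (Krt6a and Krt6b) were past the adjusted threshold in the higher direction, where 0.66% of all genes tested were. Limma-voom called Krt6a only. The groups did not overlap for 3 of the 4, which held for 38.5% of all genes tested (18.9% with cKO higher and 19.6% with cKO lower). Both counts come from the contrast that chose the members and carry no weight of their own.

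**Figure D1:**
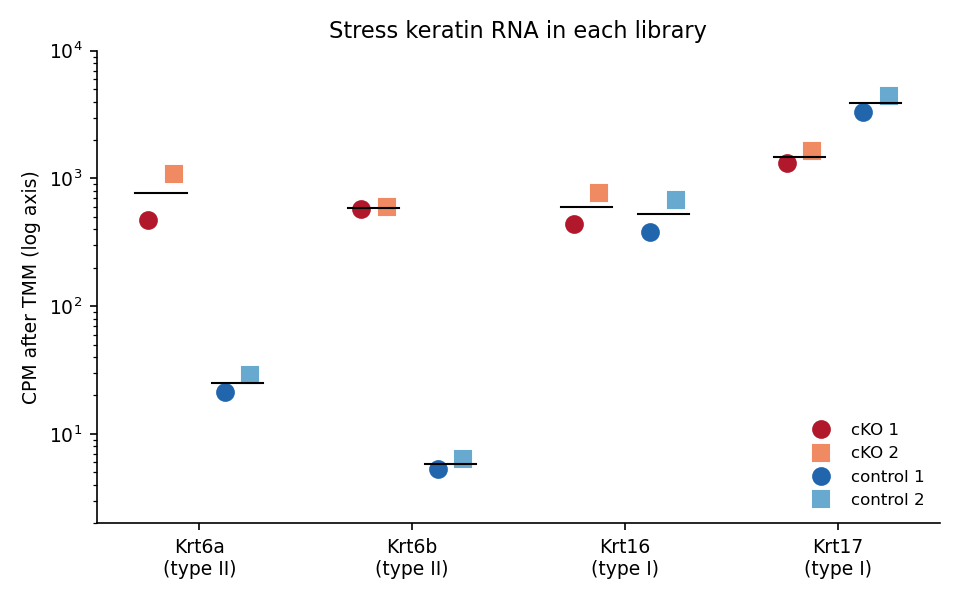
CPM after TMM scaling (log axis) of the 4 stress keratins in each library, with cKO in red and control in blue, circles for replicate 1, squares for replicate 2, and lines for group means. Krt6a and Krt6b are at 473 to 1079 CPM in cKO and 5.34 to 28.7 CPM in control, Krt16 overlaps, and Krt17 is lower in cKO.

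Krt6a counts were 117 and 96 (cKO) against 4 and 9 (control), or 473 and 1079 CPM against 21.3 and 28.7 CPM. Both cKO values were above both control values, and cKO replicate 2 was the higher of the cKO pair. Means were 776 ± 428 CPM for cKO against 25.0 ± 5.23 CPM for control (SD, n = 2 each), a ratio of 31.0. The fitted log2 fold change was 4.87 with a standard error of 0.60, and it was 4.19 without cKO replicate 2.

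Krt6b counts were 143 and 53 (cKO) against 1 and 2 (control), or 578 and 596 CPM against 5.34 and 6.39 CPM. Means were 587 ± 12.3 CPM for cKO against 5.86 ± 0.743 CPM for control (SD, n = 2 each). The cKO libraries were close to each other, unlike for Krt6a, and both control libraries were at or under the 3 counts that a count of 0 allows. With so few control counts the ratio of the pooled counts was 97.2, with a 95% interval from 32.8 to 476 (exact conditional, counting error only). The fitted log2 fold change, 6.48 with a standard error of 0.62, depends on the prior count and is no bound.

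The 2 copies made up the Krt6 signal in different proportions. Krt6b took 55.0% of the Krt6 counts in cKO replicate 1 (95% Clopper-Pearson interval 48.7% to 61.2%) and 35.6% in cKO replicate 2 (27.9% to 43.8%), so the cKO libraries differed by more than counting error. In control it was 1 of 5 and 2 of 11 counts, too few to place the share. Summed, the counts of the pair were 260 and 149 (cKO) against 5 and 11 (control), or 1051 and 1675 CPM against 26.7 and 35.1 CPM. The sum does not depend on how counted reads were divided between the copies, with means of 1363 ± 441 CPM for cKO against 30.9 ± 5.97 CPM for control (SD, n = 2 each), a ratio of 44.1.

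Part of Krt6a is covered on the opposite strand by the entries Gm49428 and Gm55158, which share 600 of its 2418 exon bases, and Krt6b shares 129 bases with Gm55157. These 3 entries had 0 counts in all 4 libraries. The first shared base of Krt6a lies 399 bases from its 3' end.

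Krt16 counts were 109 and 68 (cKO) against 72 and 212 (control), or 441 and 764 CPM against 384 and 677 CPM. The values of the groups interleaved. Means were 602 ± 229 CPM for cKO against 531 ± 207 CPM for control (SD, n = 2 each), and the log2 fold change of 0.16 was smaller than its standard error of 0.46. Its sign turned with the scaling, to -0.14 with library totals alone.

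Krt17 counts were 325 and 147 (cKO) against 621 and 1389 (control), or 1314 and 1652 CPM against 3314 and 4436 CPM. It was the most abundant keratin per kilobase in both control libraries and ranked 20 and 16 by raw count among all genes there, against 78 and 61 in cKO. Means were 1483 ± 239 CPM for cKO against 3875 ± 793 CPM for control (SD, n = 2 each), a ratio of 0.383. The log2 fold change was -1.39 with a standard error of 0.43, and Krt17 was not among the genes past the adjusted threshold.

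Per kilobase of listed exon length, the order of the members in control was Krt17 (2137 and 2860 CPM per kilobase), Krt16 (246 and 433), Krt6a (8.83 and 11.9) and Krt6b (2.39 and 2.86), with no overlap between neighbours. In cKO, Krt17 (847 and 1065 CPM per kilobase) remained above the other 3. Krt16 (282 and 488), Krt6a (196 and 446) and Krt6b (259 and 267) overlapped each other there. The type II members thus stood at the level of Krt16 in cKO and far under it in control. Because the library kit primes at transcript 3' ends, division by length may overcorrect, and the type II share is given on both scales.

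The summed RNA of the 4 stress keratins was not higher in cKO. It was 2806 and 4091 CPM in cKO and 3725 and 5148 CPM in control, with interleaved values and means of 3448 ± 908 and 4436 ± 1006 CPM (SD, n = 2 each). Its composition differed. The sum of Krt16 and Krt17 was lower in cKO, at 1755 and 2416 CPM against 3698 and 5113 CPM, a ratio of means of 0.473, while the Krt6 pair was higher.

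**Figure D2:**
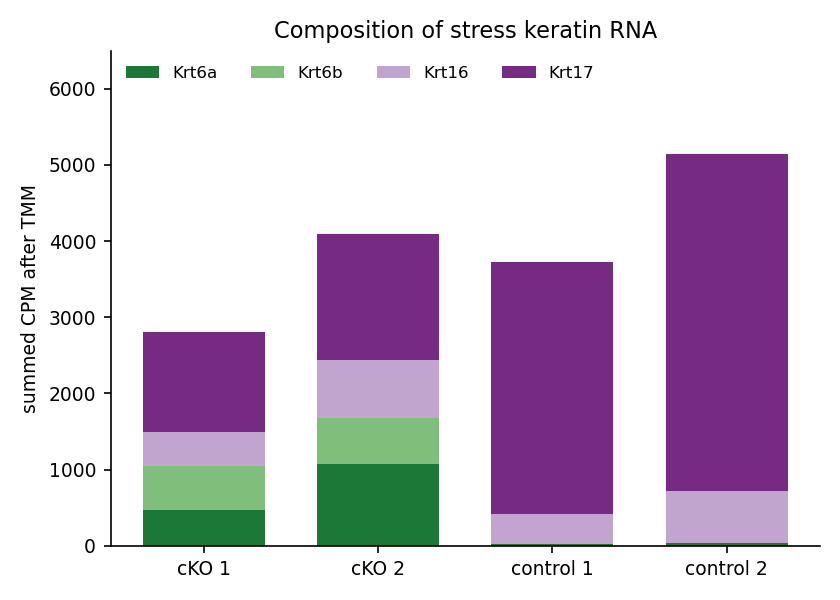
Summed CPM after TMM scaling of Krt6a, Krt6b, Krt16 and Krt17 in each of the 4 libraries, as stacked bars. The totals of cKO (2806 and 4091 CPM) and control (3725 and 5148 CPM) interleave, while the Krt6 part is 1051 and 1675 CPM in cKO and 26.7 and 35.1 CPM in control.

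Type II members were a small part of the stress keratin counts in control and a large part in cKO. The share of Krt6a and Krt6b in the counts of the 4 genes was 37.5% in cKO replicate 1 (95% Clopper-Pearson interval 33.9% to 41.2%) and 40.9% in cKO replicate 2 (35.8% to 46.2%). In control it was 0.716% (0.233% to 1.66%) and 0.682% (0.341% to 1.22%). The replicates of a group lay within each other's counting interval, and the groups were 38.5 percentage points apart. Per kilobase, the mean share was 30.1% in cKO and 0.457% in control. The share of Krt17 alone was 46.8% and 40.4% (cKO) against 89.0% and 86.2% (control). Within the type I pair, the share of Krt16 was 25.1% and 31.6% (cKO) against 10.4% and 13.2% (control). For single values such as these, 2 libraries against 2 cannot give an exact two-sided permutation p under 0.333.

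The other pairs of the epidermis differed in direction. The type II share of Krt5 and Krt14 was lower in cKO, at 37.2% and 29.9% against 59.8% and 58.0%. That of Krt1 and Krt10 was higher in cKO, as for the stress keratins, at 9.36% and 8.97% against 4.13% and 2.19%. Over all 52 keratins listed for these sums (epidermal, simple epithelial and follicular), type II genes made up 36.3% and 35.7% (cKO) against 25.9% and 26.2% (control) of the keratin counts. Without the 4 stress keratins the type II share was 36.1% and 33.6% in cKO and 35.4% and 36.2% in control, with interleaved values. The 10.02 percentage points between the groups over all keratins thus became -0.92 points once the 4 genes were left out. All keratins together were at 17367 and 13992 CPM in cKO and 13554 and 18266 CPM in control.

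**Figure D3:**
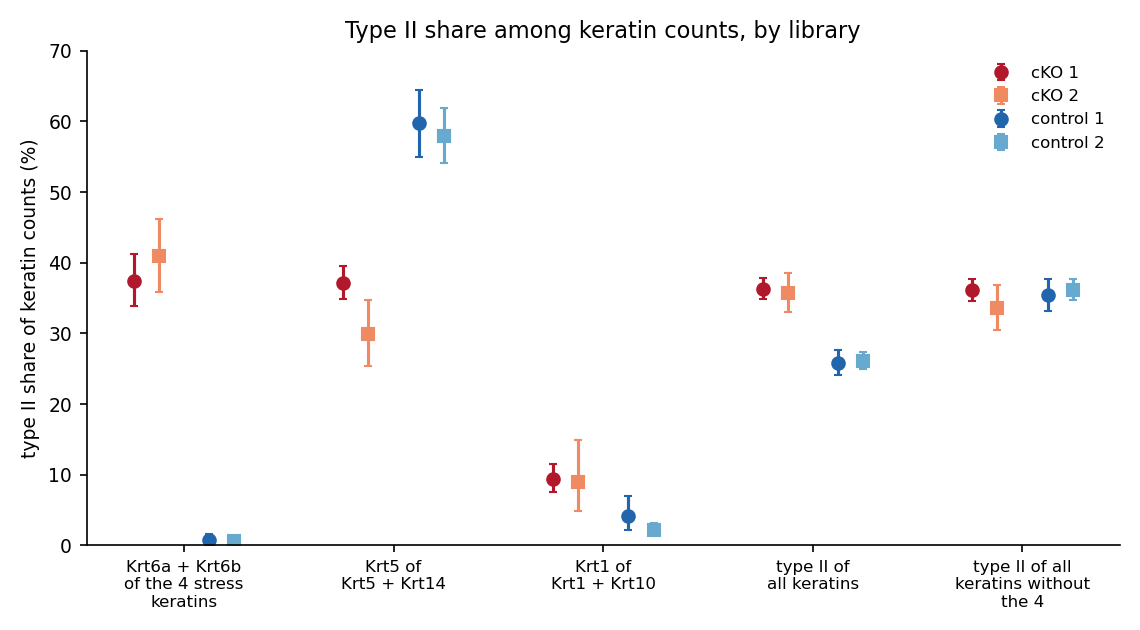
Type II share of keratin counts (%) in each library, for the 4 stress keratins, the pairs Krt5 and Krt14 and Krt1 and Krt10, all listed keratins, and all listed keratins without the 4. Bars are 95% Clopper-Pearson intervals, which cover counting error only. Over all keratins cKO is at 36.3% and 35.7% and control at 25.9% and 26.2%, and without the 4 stress keratins the libraries interleave.

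The Krt6 pair had the 2 highest log2 fold changes among the tested keratins. Of 52 keratin genes in the table, 16 passed the count filter. Of the 12 that are no stress keratins, edgeR called 0, with 6 at an unadjusted p under 0.05, while DESeq2 called 2 and limma-voom called 2. Over all 4243 genes tested, 356 (8.39%) were at an unadjusted p under 0.05, DESeq2 called 43 (1.01%) and limma-voom called 15 (0.354%). The median log2 fold change of these 12 was -0.77, against 0.007 over all genes tested. Krt14, the basal type I keratin whose promoter drives the Cre, had counts of 1077 and 267 (cKO) against 174 and 271 (control), or 4355 and 3001 CPM against 928 and 865 CPM. Its log2 fold change of 2.04 (standard error 0.44) was at the threshold (edgeR adjusted p = 0.0507) and passed it in 6 alternatives, DESeq2 (adjusted p = 0.000419) and limma-voom (0.0368) among them. Krt5, its partner, was at 2576 and 1281 CPM in cKO and 1382 and 1194 CPM in control (log2 fold change 0.59, edgeR adjusted p = 0.842). Krt1 was at 332 and 146 CPM against 69.4 and 83.03 CPM (log2 fold change 1.69, edgeR adjusted p = 0.239). Its log2 fold change was 0.88 without cKO replicate 1, and without cKO replicate 2 it was 2.11 and past the threshold (edgeR adjusted p = 0.0130). Krt10 was at 3210 and 1483 CPM against 1612 and 3711 CPM, with overlapping groups (log2 fold change -0.18, edgeR adjusted p = 0.992). None of these 4 passed the threshold in the main edgeR fit with all 4 libraries.

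**Figure D4:**
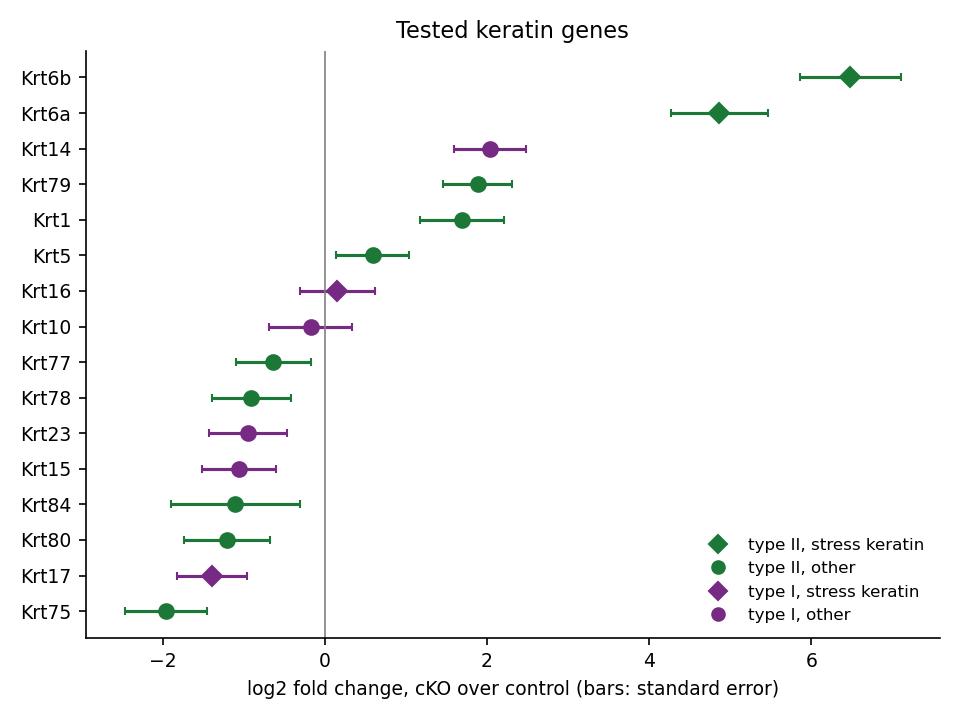
Log2 fold change, cKO over control, of the 16 keratin genes that passed the count filter, with standard errors as bars, type II in green, type I in purple and the 4 stress keratins as diamonds. Krt6b (6.48) and Krt6a (4.87) lie above all others, and Krt16 (0.16) is near 0. Krt17 (-1.39) lies between the follicle keratin Krt75 (-1.96) and the type II keratin Krt80 (-1.21), with Krt15 at -1.06.

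Krt75, Krt15 and the summed markers of inner root sheath and hair shaft were lower in both cKO libraries than in both control libraries, as Krt17 was. This also held for 3 other tested keratins counted here as epidermal and simple. Krt80 was at 158 and 45.0 CPM in cKO and 219 and 297 CPM in control. Krt77 was at 469.04 and 225 CPM against 469.58 and 635 CPM, and Krt23 at 821 and 427 CPM against 848 and 1590 CPM. Krt75, the type II keratin of the companion layer, had counts of 42 and 18 (cKO) against 81 and 312 (control), or 170 and 202 CPM against 432 and 996 CPM (log2 fold change -1.96, edgeR adjusted p = 0.119). It passed the threshold in 4 alternatives, edgeR with library totals (adjusted p = 0.0469) and without a filter (0.0115) among them. It did not pass with DESeq2 (adjusted p = 0.0726) or limma-voom (0.148). Its log2 fold change was -2.43 without control replicate 1 and -1.21 without control replicate 2. Krt15 is counted here both as an epidermal and simple type I keratin and as a marker of bulge and outer root sheath. It was at 841 and 1551 CPM in cKO and 2855 and 2098 CPM in control (log2 fold change -1.06, edgeR adjusted p = 0.526). In both control libraries Krt15 was above Krt5 (1382 and 1194 CPM) and Krt14 (928 and 865 CPM). How much of its RNA came from follicles was not tested. The 12 markers of outer root sheath, companion layer and bulge summed to 1411 and 2315 CPM in cKO and 3661 and 3366 CPM in control. Krt15 and Krt75 carried this difference, and the other 10 markers summed to 400.3 and 562 CPM in cKO and 374 and 271 CPM in control, with cKO higher. Of the 4 that were tested, 3 had negative values, and edgeR called 1, Postn, which encodes the matrix protein periostin and was higher (log2 fold change 2.61, adjusted p = 0.0331). Postn lost this call with DESeq2 (adjusted p = 0.0552), limma-voom (0.0692) and 4 other alternatives. The 18 markers of inner root sheath and hair shaft summed to 582 and 472 CPM in cKO and 1676 and 1670 CPM in control, and 8 of them, Krt27 and Krt31 among them, were at 0 in all libraries. Tchh and Krtap3-2 (129 and 67.4 CPM in cKO, 197 and 271 CPM in control) made up most of this sum. Of the others with counts, Krtap8-1 was also lower in both cKO libraries. Krt34 was higher, at 1 count in each cKO library, and the rest overlapped. Tchh, the trichohyalin of the inner root sheath, was at 400.3 and 292 CPM in cKO and 1371 and 1271 CPM in control (log2 fold change -1.91, edgeR adjusted p = 0.0677), and it passed the threshold in 6 alternatives. In these bulk libraries, fewer follicle cells and less RNA per cell cannot be told apart. The part of follicle content in the values of Krt17 was not tested. The Krt6 pair was higher in the libraries where Krt15, Krt75 and the inner root sheath and hair shaft sum were lower. The part of follicle content in the Krt6 values was not tested either.

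Of the marker lists for other cells, those of muscle, T cells and sebaceous gland had sums that did not overlap between the groups. The 12 skeletal muscle markers summed to 44.5 and 157 CPM in cKO and 1531 and 1099 CPM in control, and 4 of the 7 tested (Myh4, Pvalb, Acta1 and Tnnc2, genes of the contractile machinery and its calcium buffering) were lower past the threshold in edgeR, while DESeq2 called 2 of the 7 and limma-voom called 0. The 8 T cell markers summed to 259 and 225 CPM against 491 and 329 CPM. Of the 4 tested, Ptprc (8.09 and 45.0 CPM against 139 and 57.5 CPM) and Fxyd5 (20.2 and 45.0 CPM against 160 and 83.03 CPM) were lower in both cKO libraries. Cd3g and Thy1 overlapped between the groups, and Thy1 had a positive log2 fold change of 1.36. EdgeR, DESeq2 and limma-voom called 0 of the 4, with 2 at an unadjusted edgeR p under 0.05. The 11 sebaceous gland markers summed to 1706 and 2731 CPM in cKO against 1035 and 1182 CPM in control. Krt79 and Scd1 carried this difference, and the other 9 overlapped, at 311 and 978 CPM against 507 and 616 CPM. Of the 8 tested, 5 had positive and 3 negative values. EdgeR called 0, with 5 at an unadjusted p under 0.05, Scd3 (log2 fold change -2.63) and Dgat2 (-1.55) in the lower direction among them, and DESeq2 and limma-voom called 1 each. Krt79, a keratin of the sebaceous duct, had a log2 fold change of 1.89 (edgeR adjusted p = 0.0677) and passed the threshold in 6 alternatives, DESeq2 (adjusted p = 0.00926) and limma-voom (0.0368) among them. The part of these cells in the values of the stress keratins was not tested. Neutrophil markers were close to absent, with 9 of 10 at 0 in all libraries and at most 22.5 CPM summed in any library. Fibroblast markers (52.6 and 775 CPM in cKO, 272 and 150 CPM in control) and macrophage markers (12.1 and 315 CPM against 69.4 and 73.4 CPM) were highest in cKO replicate 2. That library also had the higher Krt6a value. The Krt6 sum was 1051 CPM in cKO replicate 1 and 1675 CPM in cKO replicate 2. The part of fibroblasts and macrophages in the Krt6 values was not tested. Summed markers of Langerhans cells, melanocytes and endothelium overlapped between the groups.

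None of the measured transcription factors that act on stress keratin genes in other settings passed the test. The list of 26 transcription factors, with AP-1, NRF2, STAT3, GLI, C/EBP, NF-kB and NFAT members, had 16 tested genes. EdgeR called 0 of them and 0 were at an unadjusted p under 0.05. DESeq2 and limma-voom also called 0, and the median log2 fold change was 0.16. The 2 most abundant were Jund, an AP-1 subunit (log2 fold change 0.15, edgeR adjusted p = 0.992), and Klf4, a factor of barrier differentiation (0.01, adjusted p = 0.998). Nfe2l2, which encodes NRF2, was under the filter with counts of 15 and 4 (cKO) against 5 and 6 (control). These are RNA levels and say nothing of the activity of the proteins.

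Among 20 cytokines and receptors, 7 were tested and edgeR called 1. This was Il36a, an epidermal cytokine of the interleukin-1 family, with counts of 95 and 10 (cKO) against 1 and 0 (control) and an adjusted p of 0.00378. With limma-voom its adjusted p was 0.388. Another 7, Il17a, Il22, Il6, Tnf and Il1a among them, had 0 counts in all libraries. Of 10 EGFR ligands and receptors, Btc and Erbb2 were tested. EdgeR called 0, with 1 at an unadjusted p under 0.05, and DESeq2 and limma-voom called 0. Btc, the ligand betacellulin, had counts of 8 and 0 (cKO) against 19 and 92 (control) (log2 fold change -3.17, edgeR adjusted p = 0.106). Erbb2, a receptor of the family, had a log2 fold change of -0.83 (edgeR adjusted p = 0.775).

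Other genes of activated and dividing keratinocytes were thinly covered. Of 19 activation genes 5 were tested, 4 with positive and 1 with negative log2 fold changes, and 3 were at an unadjusted edgeR p under 0.05. The negative one was Ivl, at 615 and 528 CPM in cKO and 1371 and 1268 CPM in control (log2 fold change -1.20). EdgeR called 1 of the 5, Klk6, a secreted protease with counts of 61 and 32 (cKO) against 0 and 0 (control) and an adjusted p of 0.000444. With limma-voom its adjusted p was 0.152. Of 19 proliferation genes in the table, 5 were tested. EdgeR, DESeq2 and limma-voom called 0 of them, and 0 were at an unadjusted p under 0.05. Their median log2 fold change was 0.56, with H2az1 at 0.38 and Tubb5 at 0.87. Of 17 genes for proteins that bind or handle keratins, 15 were tested and 1 was called. It was Flg, which encodes the filament-aggregating protein filaggrin, with a log2 fold change of 5.07 (edgeR adjusted p = 0.000593), which was 6.08 without control replicate 2. The median of the 15 was -0.35.

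The members differed in profile across the 4 libraries. As the measure of likeness, the root mean square distance between centred log2 CPM values (prior count 2) was taken over the 4 libraries. It was 0.60 between Krt6a and Krt6b and 0.81 between Krt16 and Krt17, against 2.12 to 3.33 between a type II and a type I member. Of the 4243 genes compared, those nearest to the mean profile of the 4 members were Marchf3 (distance 0.098), Teddm3 (0.126), Rassf10 (0.150), Qsox1 (0.160) and Fabp5 (0.177). Fabp5, an epidermal fatty acid-binding protein, had counts of 175 and 111 (cKO) against 26 and 77 (control). The mean profile lies between members that differ in direction, so each member was also compared alone, a choice made after the values were seen. Nearest to Krt6b were Klk6 (0.22), Sprr2a3 (0.34) and Stfa3 (0.48). Nearest to Krt6a were Chil4 (0.37), Klk6 (0.40) and Stfa1 (0.50), where Chil4 had counts of 19 and 15 (cKO) against 0 and 0 (control). Among the genes near to Krt17 were Pcyt1a (0.09) and Dennd2c (0.099). Nearest to Krt16 were Golga7 (0.042), Hmox1 (0.052) and Trak1 (0.056).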

How the data were processed

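Total RNA of separated epidermis was made into 3' libraries (QIAseq UPX) and adapted for MGI sequencing, per the labels' protocols. The authors deposited raw counts per gene for the 4 libraries, without normalisation. Trim Galore 0.6.7, Trimmomatic 0.39, cutadapt 3.7, STAR 2.7.10a, featureCounts 2.0.1 and GRCm39 are named in the submitters' processing notes, without their settings. Whether molecular identifiers were collapsed and whether strand was used are not given in the sources used here. A 3' read counts an end of a transcript, and reads shared by near-identical copies may be lost or misplaced.

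Counts were filtered with filterByExpr (minimum count 10, minimum total 15), which kept 4243 genes with 87.56% of the counts, and fitted in edgeR 4.0.16 (R 4.3.3) with TMM, glmQLFit and glmQLFTest and a genotype term. Adjustment was made over all genes tested by the Benjamini-Hochberg method (threshold 0.05). A standard error is the absolute log2 fold change over the square root of F. The fit was checked on simulated counts. Intervals of shares are Clopper-Pearson (SciPy 1.17.1). Transcripts of GENCODE M21 (GRCm38) were matched by transcript ID and aligned with Biopython 1.88, and no coordinates of that build were used. Promoters and proteins of the members, planned for description, were not analysed here. Alternatives were other scalings and filters, DESeq2 1.42.0, limma-voom (limma 3.58.1), a replicate block, and each library left out in turn.

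The members and the 22 gene lists were chosen with earlier results of these data known. By the rule for naming, the members, Stim1, Stim2, Krt5, Krt14, Krt1, Krt10 and Krt75 are always named. Of each other list the called genes (at most 4, mean of at least 10 CPM) or else the 2 most abundant tested genes are named, and the 5 genes nearest to the mean profile. Krt15, Scd3, Dgat2, Nfe2l2, the genes left out of marker sums, genes at 0 and the genes nearest to single members were picked after their values were seen.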

Additional observations from a re-analysis of the deposited data

How the results depend on the processing

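The log2 fold changes of Krt6a (4.19 to 5.31) and Krt17 (-1.67 to -1.15) kept their direction in all 14 alternatives. Krt16 ran from -0.27 to 0.64 and changed sign with library totals and without cKO replicate 2 or control replicate 1. Krt6b, with 3 control counts in all, was 6.21 with limma-voom, 6.22 with library totals, 6.63 with DESeq2, 6.39 without a filter, and 6.399 to 6.61 with 1 library left out. With 1 library left out, the type II share of the 4 genes differed between groups by 36.8 to 40.2 points.

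With 1 library left out, Krt5 ran from -0.051 (without cKO replicate 1) to 1.01, Krt1 from 0.88 to 2.11 and Krt10 from -0.89 to 0.57, being 0.28 without cKO replicate 2 and 0.57 without control replicate 2.

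Over all genes, the 28 higher calls became 12 with limma-voom and 49 without a filter, and 34 to 59 with 1 library left out. The 8 lower calls became 3 with limma-voom, 15 with library totals, 15 with a mean of at least 10 CPM, 26 without a filter, and 8 to 34 with 1 library left out. With the replicate block there were 16 higher and 1 lower. The labels give no shared source for a replicate number. Across genes, the deviations of same-numbered libraries from their group means were only weakly correlated (-0.2). With the numbers crossed, a block chosen after the data were seen, 90 were higher and 57 lower, with 3 of the 4 members (Krt17 in addition) among the calls. The cause of these changes was not tested. The alternatives counted above as passed by Krt14, Krt75, Krt79 and Tchh include the crossed block. Calls at 1 to 9 counts a library are limited by depth.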
